A study of Rattus norvegicus with 6 samples.

Results

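The genes described here encode membrane transporters and were chosen by symbol, under a rule set with earlier results of these data known. They are all genes on the array whose platform symbol begins with Slc (solute carriers), with Abc followed by a family letter from a to g and a digit (ATP-binding cassette proteins), with Aqp (aquaporins), or with Atp1, Atp2, Atp7 or Atp8 followed by a or b (P-type pumps and their subunits). The rule found 73 of the 3158 named genes on the array, and they were measured by 87 clones. The cells were JA, JB and Amy, 3 cell lines from reflux-induced tumors of the rat esophagus, and each was set against the same normal pool, made in equal parts from a pair of lines of normal rat esophagus. The assay was the cDNA array read in 2 colours. Each line had a Cy3 array and a Cy5 array, named here for the dye that the line carried while the pool carried the other. Such a dye swap is a technical repeat, so a line counts as 1 replicate. The sources used here do not give strain, passage, culture conditions or clonality of the lines.

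Values are log2 ratios of tumor line over normal pool, so that 1 is a doubling and 0 is equal signal. Base 2 is an assumption, since no source used here gives the base. The direction is likely but not settled, as it comes from which name stands first in the titles, and with the opposite direction every higher gene would be a lower one. Ratios carry no level, so neither the abundance of a transporter nor the identity of the cells could be read from them, and a large ratio cannot be told from a bound set by a dim channel. Array medians lay between -0.05 and -0.15, and duplicate spots of a clone correlated at 0.907 to 0.949 within an array. Across the 73 genes, which are not independent replicates, the Cy3 and Cy5 arrays correlated at 0.887 for JA, 0.79 for JB and 0.935 for Amy.

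Solute carriers move sugars, amino acids, ions, metals and metabolites across membranes along gradients, whereas ATP-binding cassette transporters and P-type pumps spend ATP to do so, and aquaporins are channels for water and small solutes. The sodium-potassium pump builds the sodium gradient that many carriers use. In the squamous epithelium of the esophagus, bicarbonate carriers and proton exchangers take part in the defence of the cells against refluxed acid.

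Transporter genes moved in both directions. The mean of the 3 lines passed the test against the pool for 18 genes above and 29 below, out of 73 (limma, two-sided, Benjamini-Hochberg adjusted p under 0.05 over 7180 features). Over all features, 20.7% were called higher and 32.8% lower, and 53.5% in either direction, so the shares of the transporters, 24.7% and 39.7%, lay near those of the whole array. Of the calls, 17 of the higher and 24 of the lower genes had 1 sign on all 6 arrays. These were 23.3% and 32.9% of the 73 genes, near the 19.2% and 29.7% of all features. The median over the 73 genes was -0.07, beside -0.12 over all features. A ratio of at least 2-fold on all 6 arrays was reached by 6 genes above (8.22%) and 7 below (9.59%), against 2.83% and 8.12% of all features. The pool entered as a single sample without a spread of its own, so p-values measure only the spread between the 3 lines. Without JA, 9 genes passed above and 16 below. Counts by transport class below rest on 1 to 8 genes each and were not tested as classes. They stand beside the 20.7% and 32.8% of all features called higher and lower.

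Markers of cells other than epithelium were also lower in the tumor lines. Of the fibroblast list 9 of 10 measured genes fell and 1 rose (median -3.50), of the leukocyte list 8 of 9 fell and 1 rose (median -3.57), and all 4 measured muscle genes and all 3 endothelial genes fell (medians -3.68 and -1.53). The range of the fibroblast genes was -9.0 to 1.06 and that of the leukocyte genes -5.22 to 0.67. Among the leukocyte genes counted as fallen, Cd53 averaged 0.73 over Cy3 arrays and -1.68 over Cy5 arrays. The 2 clones of Lyz2 differed widely, at -4.55 and -0.41. Of the 20 genes listed for squamous epithelium, not all of which are specific to it, only 3 were measured. Of these 2 fell, Lgals7 to -5.82 and Cstb to -0.68. The third, Krt8, is not specific to squamous cells, stood at 0.41 and did not pass. Among these 3 genes only Lgals7 had a large fall. Aqp1 and Slc40a1 are known from endothelium and macrophages as well as from epithelia, so the values of all the lists stand beside theirs. The part of other cells in the fall of Aqp1, Slc40a1 or any other transporter was not tested, and in such bulk RNA fewer cells of a type and less RNA per cell cannot be told apart.

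**Figure D1:**
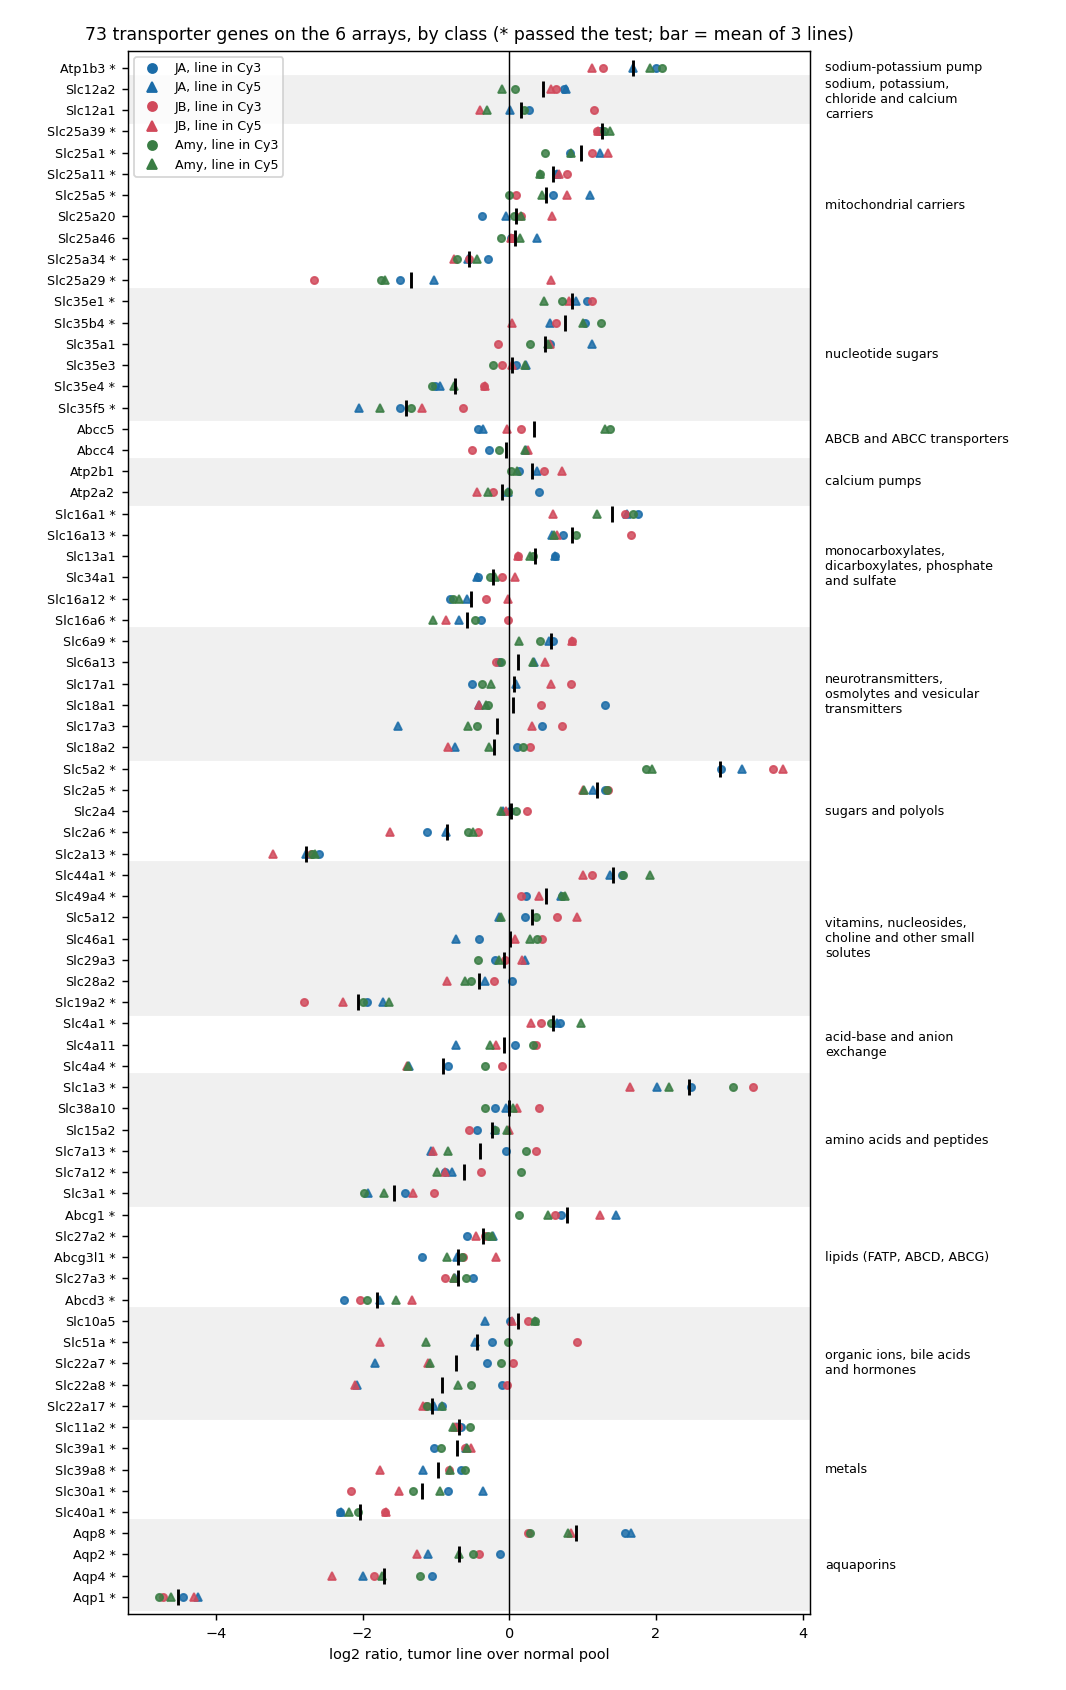
Log2 ratios of tumor line over normal pool for the 73 transporter genes (horizontal axis), 1 row per gene, grouped by transport class, with each line in its own colour, circles for Cy3 arrays and triangles for Cy5 arrays. Black bars are means of the 3 lines and stars mark the 47 genes that passed, from Aqp1 at -4.52 to Slc5a2 at 2.86.

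The promoter windows of 4 genes are printed first, namely the gene with the highest mean (Slc5a2), that with the lowest (Aqp1) and both cell-surface metal exporters (Slc40a1 and Slc30a1), shown because every measured metal carrier fell. Each holds 300 bases, from 250 before to 50 after the annotated start, 5′ to 3′ on the strand of the gene, from RefSeq on build GRCr8. RefSeq windows were found for 58 of the 73 genes. Slc5a2 lies at chr1:192277371-192277670 on the plus strand, Aqp1 at chr4:85812534-85812833 on the plus strand, Slc40a1 at chr9:55543411-55543710 on the minus strand and Slc30a1 at chr13:106021769-106022068 on the plus strand. Capitals mark matches on either strand to TATAAA, the letters of a TATA box, or to TGCNCNC, a loose form of the core of the metal response element, and no matches overlapped.
Slc5a2: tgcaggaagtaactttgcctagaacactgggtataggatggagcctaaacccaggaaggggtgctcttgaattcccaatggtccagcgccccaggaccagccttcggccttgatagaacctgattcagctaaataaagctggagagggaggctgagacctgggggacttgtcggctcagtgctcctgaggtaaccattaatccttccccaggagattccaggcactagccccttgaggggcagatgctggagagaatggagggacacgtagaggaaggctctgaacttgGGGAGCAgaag
Aqp1: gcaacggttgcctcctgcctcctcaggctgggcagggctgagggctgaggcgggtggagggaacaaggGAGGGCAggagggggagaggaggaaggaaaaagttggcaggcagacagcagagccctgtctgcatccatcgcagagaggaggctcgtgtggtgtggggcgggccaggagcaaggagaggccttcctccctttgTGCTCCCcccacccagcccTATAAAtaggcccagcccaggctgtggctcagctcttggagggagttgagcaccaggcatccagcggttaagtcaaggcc
Slc40a1: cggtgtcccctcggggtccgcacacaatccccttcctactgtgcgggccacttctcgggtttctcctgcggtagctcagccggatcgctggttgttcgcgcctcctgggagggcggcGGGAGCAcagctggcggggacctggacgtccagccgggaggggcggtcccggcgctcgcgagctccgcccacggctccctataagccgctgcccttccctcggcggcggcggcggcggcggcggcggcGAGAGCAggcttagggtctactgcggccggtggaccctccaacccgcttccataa
Slc30a1: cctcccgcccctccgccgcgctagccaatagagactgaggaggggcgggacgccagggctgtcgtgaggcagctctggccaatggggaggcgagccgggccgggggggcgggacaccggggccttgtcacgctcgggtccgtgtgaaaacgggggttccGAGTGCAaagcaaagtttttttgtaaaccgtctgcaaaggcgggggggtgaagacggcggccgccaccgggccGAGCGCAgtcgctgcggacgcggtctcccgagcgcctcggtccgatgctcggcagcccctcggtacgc
TATAAA occurred in the Aqp1 window alone of these 4, at bases 30 to 25 before the start, and in 14.2% of all 33469 windows. TGCNCNC occurred at 1 place in the Slc5a2 window and at 2 places in each of the others. It was present in 49.6% of all windows and in 53.4% of the transporter windows, so these matches describe the sequences only and say nothing of binding.

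Sugar and polyol carriers held both the highest transporter and the second lowest. Slc5a2 encodes the sodium-glucose cotransporter known from the kidney proximal tubule. Its log2 ratios, given here and below with the Cy3 array before the Cy5 array, were 2.89 and 3.17 in JA, 3.59 and 3.74 in JB, and 1.86 and 1.94 in Amy. All 6 arrays were far above 0, with JB highest and Amy lowest, and the mean was 2.86 ± 0.89 (SD, n = 3 lines), or 7.28-fold (limma adjusted p = 0.00241). Slc2a5, the fructose carrier GLUT5, rose evenly, with 1.31 and 1.13 in JA, 1.34 and 1.001 in JB and 1.33 and 1.01 in Amy. Its mean was 1.19 ± 0.03 (SD, n = 3 lines; limma adjusted p = 0.00125), the smallest SD among the genes that passed. Slc2a13, the proton-coupled carrier of myo-inositol, fell on every array, with -2.59 and -2.77 in JA, -2.70 and -3.23 in JB and -2.70 and -2.66 in Amy. The 3 lines lay close together, at a mean of -2.77 ± 0.17 (SD, n = 3 lines; limma adjusted p = 0.00015). The insulin-responsive glucose carrier GLUT4 (Slc2a4) stood at 0.02 ± 0.07 (SD, n = 3 lines) and did not pass. The intracellular hexose carrier Slc2a6 passed at -0.85 ± 0.28 (SD, n = 3 lines; limma adjusted p = 0.00733), a call lost without JA (limma adjusted p = 0.0607), and its 2 clones differed widely, at -1.65 and -0.05. Thus the class had a median of 0.02, with 2 genes that rose, 2 that fell and 1 that did not pass.

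Amino acid and peptide carriers were led by Slc1a3, the sodium-coupled glutamate transporter GLAST. It had log2 ratios of 2.48 and 2.01 in JA, 3.33 and 1.64 in JB and 3.04 and 2.17 in Amy. Every array was above 1.6, but in each line the Cy3 array gave the larger ratio, and the arrays of the 2 orientations averaged 2.95 (Cy3) and 1.94 (Cy5). The mean was 2.44 ± 0.18 (SD, n = 3 lines), or 5.44-fold (limma adjusted p = 2.41e-04). Slc3a1, the heavy chain of the cystine and dibasic amino acid exchanger, fell, with -1.43 and -1.92 in JA, -1.03 and -1.31 in JB and -1.99 and -1.71 in Amy, a mean of -1.57 ± 0.35 (SD, n = 3 lines; limma adjusted p = 0.00182). JB fell least on both arrays. The light-chain family members Slc7a12 and Slc7a13 also passed, at -0.62 ± 0.21 and -0.40 ± 0.13 (SD, n = 3 lines), but without 1 sign on all arrays. Slc7a13 averaged 0.18 over Cy3 arrays and -0.99 over Cy5 arrays, and its call was lost without any 1 of the lines (limma adjusted p from 0.0678 to 0.174) or either JA array (0.0676 and 0.207), the Cy5 array of JB (0.551) or that of Amy (0.369), and in a fit of all 6 arrays with line as a random block (0.248). The call of Slc7a12 was lost without JA (limma adjusted p = 0.0843), without the Cy5 array of Amy (0.159) and with the dye orientation as a block (0.0533). The peptide carrier Slc15a2 and the carrier Slc38a10 did not pass, at -0.24 and -0.01. The class thus held 1 gene that rose, 3 that fell and a median of -0.32.

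All 5 measured metal carriers fell, with a median of -0.97, and each had 1 sign on all 6 arrays. Over all features, 32.8% were called lower, and 29.7% lower with 1 sign on all 6 arrays. Whether so few genes depart from these shares was not tested. Slc40a1, ferroportin, the exporter of iron, was lowest, with -2.32 and -2.30 in JA, -1.69 and -1.69 in JB and -2.06 and -2.18 in Amy. The 2 arrays of a line nearly coincided, and the mean was -2.04 ± 0.32 (SD, n = 3 lines; limma adjusted p = 7.41e-04), 4.11-fold lower than in the pool. Slc30a1, the zinc exporter ZnT1 of the cell surface, varied more between lines, with -0.83 and -0.36 in JA, -2.16 and -1.50 in JB and -1.32 and -0.94 in Amy, a mean of -1.18 ± 0.62 (SD, n = 3 lines; limma adjusted p = 0.0131). JB was lowest and JA highest in both dye orientations. Its call was lost without Amy (limma adjusted p = 0.0639). The importers of zinc and other metals Slc39a8 and Slc39a1 stood at -0.97 ± 0.29 and -0.71 ± 0.13 (SD, n = 3 lines; limma adjusted p = 0.00534 and 0.00661), the second losing its call without JA (limma adjusted p = 0.0533). Slc11a2, the proton-coupled iron importer DMT1, averaged -0.69 ± 0.03 (SD, n = 3 lines; limma adjusted p = 0.0057), yet 1 of its 2 clones stood at -1.49 and the other at 0.11, which did not pass. Its small SD over lines is therefore that of a mean of unlike clones. Counted by clones, 5 of the 6 clones of the metal carriers were negative.

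Of the 4 aquaporins, 3 fell and 1 rose, where 32.8% and 20.7% of all features were called lower and higher. Aqp1, the widely expressed water channel of endothelium and other tissues, was the lowest of all 73 genes, with -4.44 and -4.25 in JA, -4.73 and -4.30 in JB and -4.77 and -4.61 in Amy. All 6 arrays lay within a narrow range, and the mean was -4.52 ± 0.17 (SD, n = 3 lines; limma adjusted p = 4.38e-05), 22.9-fold lower than in the pool. Aqp4, the water channel known from astrocyte endfeet, had -1.05 and -2.0 in JA, -1.85 and -2.42 in JB and -1.21 and -1.74 in Amy, a mean of -1.71 ± 0.37 (SD, n = 3 lines; limma adjusted p = 0.00155). Aqp2, the vasopressin-regulated channel of the kidney collecting duct, passed at -0.68 ± 0.13 (SD, n = 3 lines; limma adjusted p = 0.00758). It averaged -0.35 over Cy3 arrays and -1.02 over Cy5 arrays, and the call was lost without the Cy5 array of JA (limma adjusted p = 0.0562). Aqp8 rose, at 1.58 and 1.66 in JA, 0.26 and 0.84 in JB and 0.29 and 0.80 in Amy, a mean of 0.90 ± 0.62 (SD, n = 3 lines; limma adjusted p = 0.0308). JA was the highest line on both arrays, and the call was lost without JA (limma adjusted p = 0.0681), Amy (0.0638) or the Cy5 array of JB (0.0677) or Amy (0.0521).

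Among pumps, only the beta-3 subunit of the sodium-potassium pump (Atp1b3), which carries the catalytic subunit to the cell surface, passed. It had log2 ratios of 2.0 and 1.69 in JA, 1.27 and 1.13 in JB and 2.08 and 1.92 in Amy. JB was lowest, all 6 arrays exceeded 1, and the mean was 1.68 ± 0.42 (SD, n = 3 lines), or 3.21-fold (limma adjusted p = 0.00205). The calcium pumps of the endoplasmic reticulum (Atp2a2, SERCA2) and of the cell surface (Atp2b1, PMCA1) stood at -0.10 ± 0.27 and 0.30 ± 0.27 (SD, n = 3 lines) and did not pass. No gene of the Atp7 copper pumps or Atp8 flippases was among the 73.

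The 6 genes grouped as carriers of monocarboxylates, phosphate and sulfate were split, with 2 higher, 2 lower and 2 not passing. Slc16a1, the proton-coupled lactate and pyruvate carrier MCT1, had 1.76 and 1.61 in JA, 1.58 and 0.60 in JB and 1.68 and 1.19 in Amy. The Cy5 array of JB was the lowest, and the mean was 1.40 ± 0.30 (SD, n = 3 lines), or 2.64-fold (limma adjusted p = 0.00196). Its relative Slc16a13 rose to 0.85 ± 0.26 (SD, n = 3 lines; limma adjusted p = 0.00665), with 1.65 on the Cy3 array of JB and 0.58 to 0.90 on the others. Slc16a6 and Slc16a12 passed below 0, at -0.58 ± 0.16 and -0.53 ± 0.31 (SD, n = 3 lines), but both calls were lost without JA (limma adjusted p = 0.0742 and 0.182) or Amy (0.0751 and 0.167). Slc16a6 also did not pass without the Cy5 array of JB (limma adjusted p = 0.112), nor Slc16a12 without the Cy3 array of JA (0.0632) or JB (0.0887), and the 2 clones of Slc16a12 stood at -1.26 and 0.20. The sulfate carrier Slc13a1 and the phosphate carrier Slc34a1 did not pass, at 0.35 ± 0.25 and -0.23 ± 0.21 (SD, n = 3 lines), although Slc13a1 passed with the dye orientation as a block (limma adjusted p = 0.0499).

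Mitochondrial carriers, which exchange metabolites across the inner membrane, had 4 of 8 genes higher and 2 lower. Slc25a39, needed for glutathione import into mitochondria, was the most even, with 1.24 and 1.28 in JA, 1.19 and 1.20 in JB and 1.29 and 1.37 in Amy. All 6 arrays lay within 0.2 of one another, and the mean was 1.26 ± 0.07 (SD, n = 3 lines; limma adjusted p = 0.00111). The citrate carrier Slc25a1 rose to 0.97 ± 0.29 and the oxoglutarate carrier Slc25a11 to 0.60 ± 0.17 (SD, n = 3 lines; limma adjusted p = 0.00524 and 0.0132), the second losing its call without JA (limma adjusted p = 0.0808). The ADP/ATP carrier Slc25a5 passed narrowly at 0.50 ± 0.32 (SD, n = 3 lines; limma adjusted p = 0.0461) and lost its call without any 1 of the lines (limma adjusted p from 0.062 to 0.190) or any array but the Cy3 arrays of JB and Amy (0.054 to 0.159). Slc25a29, a carrier of basic amino acids, had -1.49 and -1.02 in JA, -2.67 and 0.57 in JB and -1.75 and -1.70 in Amy. The arrays of JB were on opposite sides of 0. The mean of -1.34 ± 0.35 (SD, n = 3 lines; limma adjusted p = 0.00273) hides that disagreement, since the SD is over line means, and without the Cy3 array of JB (limma adjusted p = 0.181) or with the dye orientation as a block (0.0838) the gene did not pass. Slc25a34 passed at -0.55 ± 0.12 (SD, n = 3 lines) and lost its call without JA (limma adjusted p = 0.0554) or Amy (0.0693). The carnitine carrier Slc25a20 and Slc25a46, a protein of the outer membrane, did not pass, at 0.09 and 0.08.

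Lipid transporters were mostly lower, with 4 of 5 below the pool, where 32.8% of all features were called lower. Abcd3, which imports acyl-CoA esters into peroxisomes, had -2.25 and -1.76 in JA, -2.03 and -1.33 in JB and -1.94 and -1.55 in Amy. It was below -1 on all 6 arrays, with a mean of -1.81 ± 0.17 (SD, n = 3 lines; limma adjusted p = 5.54e-04). The fatty acid transport proteins Slc27a3 and Slc27a2 stood at -0.70 ± 0.10 and -0.35 ± 0.08 (SD, n = 3 lines; limma adjusted p = 0.00622 and 0.0487), the second lost without any 1 of the lines (limma adjusted p from 0.111 to 0.177) or any 1 of the 6 arrays (0.0508 to 0.142). Abcg3l1, a rodent gene of the ABCG family, stood at -0.70 ± 0.27 (SD, n = 3 lines), a call lost without JA (limma adjusted p = 0.0821) or Amy (0.0701). The cholesterol exporter Abcg1 was the exception, at 0.71 and 1.46 in JA, 0.62 and 1.24 in JB and 0.13 and 0.53 in Amy. Amy was lowest in both orientations, and the mean was 0.78 ± 0.40 (SD, n = 3 lines; limma adjusted p = 0.0179), lost without JA (limma adjusted p = 0.107). The ABCC efflux pumps Abcc4 and Abcc5 did not pass as means of 3 lines, at -0.04 ± 0.08 and 0.33 ± 0.90 (SD, n = 3 lines), and no ABCB gene was among the 73.

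Carriers of vitamins, nucleosides, choline and other small solutes had 2 of 7 genes higher and 1 lower. Slc44a1, a choline carrier, rose, with 1.54 and 1.37 in JA, 1.12 and 1.001 in JB and 1.56 and 1.91 in Amy, a mean of 1.42 ± 0.34 (SD, n = 3 lines; limma adjusted p = 0.00228). Slc19a2, the high-affinity thiamine carrier, fell, with -1.94 and -1.72 in JA, -2.81 and -2.26 in JB and -2.0 and -1.64 in Amy, a mean of -2.06 ± 0.41 (SD, n = 3 lines; limma adjusted p = 0.00111). JB was the lowest line for both genes in each dye orientation. The lysosomal membrane protein Slc49a4 passed at 0.50 ± 0.23 (SD, n = 3 lines), lost without JA (limma adjusted p = 0.123), Amy (0.136) or the Cy5 array of JA (0.0767) or JB (0.0724). The concentrative nucleoside carrier Slc28a2 just missed the threshold at -0.41 ± 0.23 (SD, n = 3 lines; limma adjusted p = 0.0545) and passed without the Cy3 array of JA (0.0442). The others that did not pass, the nucleoside carrier Slc29a3, the proton-coupled folate carrier Slc46a1 and the lactate carrier Slc5a12, stood between -0.07 and 0.31. Slc5a12 was grouped here by its symbol and is not in the count of monocarboxylate carriers above.

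Genes of the Slc35 family, grouped here by name as nucleotide sugar carriers, had 2 of 6 higher and 2 lower. Nucleotide sugar carriers supply sugars for glycosylation to the Golgi and endoplasmic reticulum, but whether each of these genes is one was not tested. Slc35e1 rose to 0.85 ± 0.22 and Slc35b4 to 0.75 ± 0.40 (SD, n = 3 lines; limma adjusted p = 0.00564 and 0.0198). Both lost the call without JA (limma adjusted p = 0.0504 and 0.110), and Slc35b4 also without Amy (0.0876) or the Cy3 array of JB (0.0657). Slc35f5 fell, with -1.49 and -2.05 in JA, -0.63 and -1.20 in JB and -1.34 and -1.77 in Amy, a mean of -1.41 ± 0.45 (SD, n = 3 lines; limma adjusted p = 0.00371). JB was nearest to the pool. Slc35e4 stood at -0.74 ± 0.35 (SD, n = 3 lines), a call lost without JA (limma adjusted p = 0.102) or Amy (0.0873). The CMP-sialic acid carrier Slc35a1 missed the threshold at 0.48 ± 0.33 (SD, n = 3 lines; limma adjusted p = 0.0539) and passed with the dye orientation as a block (0.0367) and without JB (0.0284), the Cy3 array of JB (0.0239) or that of Amy (0.0448). Slc35e3 stood at 0.04.

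Carriers of organic ions, bile acids and hormones were lower in 4 of 5 genes, where 32.8% of all features were called lower. In several of these carriers, however, the Cy3 and Cy5 arrays differed. Slc22a17, a receptor and carrier for lipocalin-2, was even, with -0.92 and -1.03 in JA, -1.14 and -1.17 in JB and -1.13 and -0.92 in Amy, a mean of -1.05 ± 0.10 (SD, n = 3 lines; limma adjusted p = 0.00198). The organic anion carrier OAT3 (Slc22a8) had -0.10 and -2.07 in JA, -0.03 and -2.11 in JB and -0.52 and -0.70 in Amy. The Cy3 arrays of JA and JB were thus close to 0, and their Cy5 arrays were both below -2. Its mean of -0.92 ± 0.27 (SD, n = 3 lines; limma adjusted p = 0.00551) averages these. The call was lost without JA (limma adjusted p = 0.0501), without the Cy5 array of JA (0.0656) or JB (0.0908), with the dye orientation as a block (0.0662) and in a fit of all 6 arrays with line as a random block (0.0714). OAT2 (Slc22a7) averaged -0.12 over Cy3 arrays and -1.34 over Cy5 arrays. Slc51a, a subunit of the basolateral bile acid exporter, averaged 0.22 over Cy3 arrays and -1.12 over Cy5 arrays. Both passed, at -0.73 ± 0.29 and -0.45 ± 0.12 (SD, n = 3 lines), without 1 sign on all arrays. The call of Slc22a7 was lost without JA (limma adjusted p = 0.0652) or the Cy5 array of JB (0.117) or Amy (0.069), and with line as a random block (0.0665). That of Slc51a was lost without any 1 of the lines (limma adjusted p from 0.0543 to 0.122), with the dye orientation as a block (0.389), with line as a random block (0.350), and without either JB array or the Cy5 array of JA or Amy (0.051 to 0.9998). Slc10a5, of the bile acid carrier family, stood at 0.11 and did not pass.

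**Figure D2:**
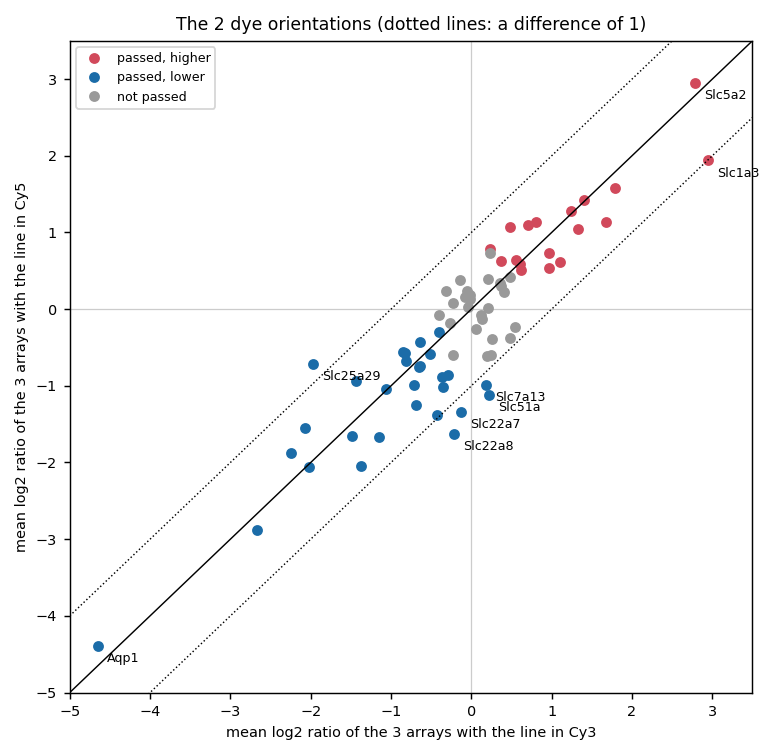
Mean log2 ratio of the 3 Cy3 arrays (horizontal axis) against that of the 3 Cy5 arrays (vertical axis) for the 73 genes, coloured by the result of the test, with a solid line at equality and dotted lines at a difference of 1. Slc22a8, Slc22a7, Slc51a and Slc7a13 lie on or near the vertical line at 0 and well below the horizontal one, whereas Slc5a2 and Aqp1 lie near equality.

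The orientation means differed by at least 1 for 6 of the 73 genes, which were Slc1a3, Slc7a13, Slc22a7, Slc22a8, Slc25a29 and Slc51a, all of which passed the test, and for 6.16% of all features. These 6 were 8.22% of the transporters, near the share of the whole array. Slc1a3 kept its sign and a ratio above 1.6 on every array. Among the other 5, Slc7a13 and Slc51a had orientation means of opposite sign, and the Cy3 mean of Slc25a29 was further below 0 than its Cy5 mean.

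Acid-base carriers were few, with 1 of 3 measured genes on each side. The anion exchanger Slc4a1, known as band 3 of red cells, passed at 0.60 ± 0.21 (SD, n = 3 lines; limma adjusted p = 0.0163), a call lost without JA (limma adjusted p = 0.0963) or Amy (0.0850). The sodium bicarbonate cotransporter NBCe1 (Slc4a4) had -0.84 and -1.37 in JA, -0.10 and -1.39 in JB and -0.33 and -1.38 in Amy. The 3 Cy5 arrays lay close together and the other 3 lay nearer to 0. Its mean was -0.90 ± 0.18 (SD, n = 3 lines; limma adjusted p = 0.00403), a call lost without the Cy5 array of JB (limma adjusted p = 0.0554). Slc4a11 stood at -0.07 and did not pass, and no sodium-proton exchanger of the Slc9 family was among the 73.

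Of the 6 carriers of neurotransmitters and related solutes, only the glycine carrier Slc6a9 passed, at 0.59 and 0.53 in JA, 0.85 and 0.85 in JB and 0.42 and 0.13 in Amy, a mean of 0.56 ± 0.29 (SD, n = 3 lines; limma adjusted p = 0.0285). The call was lost without JA (limma adjusted p = 0.127), JB (0.0783) or the Cy3 array of Amy (0.0558). The GABA carrier Slc6a13, the vesicular monoamine carriers Slc18a1 and Slc18a2 and the organic anion carriers Slc17a1 and Slc17a3 stood between -0.21 and 0.12. Without JB, Slc17a3 passed at -0.52 (limma adjusted p = 0.0335), although its JA arrays lay on opposite sides of 0, at 0.44 (Cy3) and -1.52 (Cy5).

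Several genes were measured by more than 1 clone, and for some of these the mean of the gene hid opposite clones. Slc12a2 encodes the sodium-potassium-chloride cotransporter NKCC1. As a gene mean it stood at 0.45 ± 0.41 (SD, n = 3 lines; limma adjusted p = 0.0901) and did not pass, although it did without Amy (0.0393) and with the dye orientation as a block (0.0481). Of its 4 clones, however, 2 were high, 1 with 3.08 and 2.71 in JA, 3.10 and 2.47 in JB and 2.501 and 1.89 in Amy, and 1 with 2.96 and 2.78 in JA, 2.82 and 2.45 in JB and 1.77 and 1.66 in Amy. The other 2 were low, 1 with -1.81 and -1.58 in JA, -2.19 and -1.84 in JB and -2.85 and -2.71 in Amy, and 1 with -1.24 and -0.81 in JA, -1.21 and -0.79 in JB and -1.09 and -1.23 in Amy. Each clone kept its sign on all 6 arrays. Fitted over the 8064 clones of the array, all 4 passed, at means of 2.62, 2.41, -2.16 and -1.06 (limma adjusted p from 5.23e-04 to 0.00211). The direction of NKCC1 is therefore not given by these arrays, although the platform assigns all 4 clones to this gene. Amy had the lowest ratio of the 3 lines on both arrays for both high clones and for 1 of the low clones. The kidney cotransporter NKCC2 (Slc12a1), measured by 1 clone, stood at 0.15 ± 0.22 (SD, n = 3 lines) and did not pass.

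**Figure D3:**
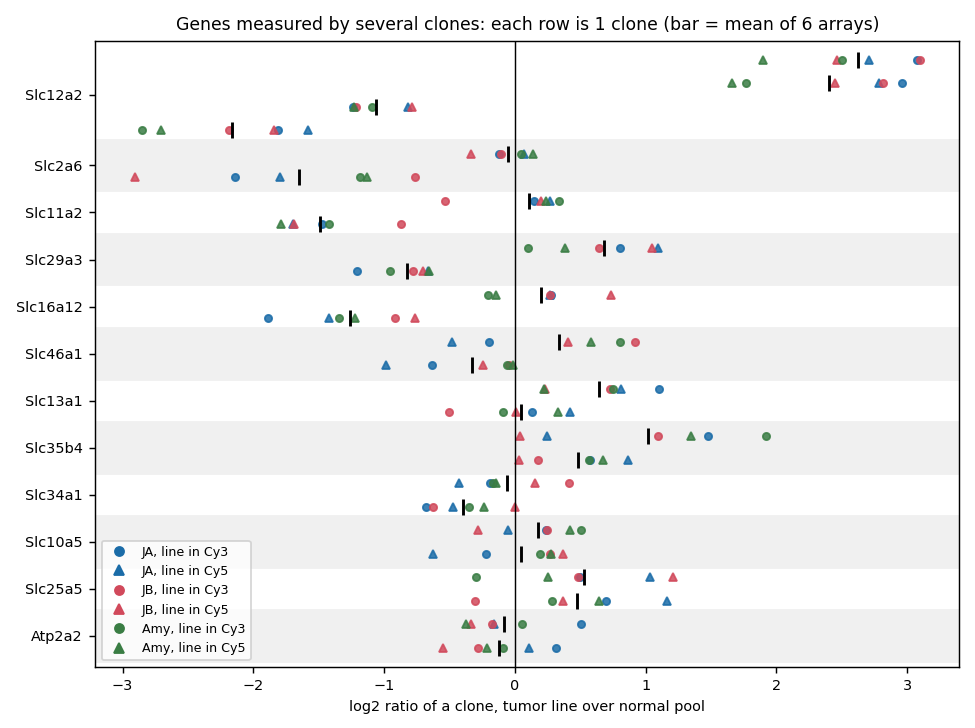
Log2 ratios of tumor line over normal pool (horizontal axis) for each clone of the 12 transporter genes with several clones, 1 row per clone, with each line in its own colour, circles for Cy3 arrays and triangles for Cy5 arrays, and black bars at the mean of 6 arrays. The 4 clones of Slc12a2 form 1 pair above 1.6 and 1 pair below -0.7, and the 2 clones of Slc29a3 lie on opposite sides of 0.

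The lysosomal nucleoside carrier Slc29a3 was a second such case. Its clones stood at -0.83 and 0.68, both with 1 sign on all 6 arrays and both past the test over clones (limma adjusted p = 0.00431 and 0.0270), and the gene mean was -0.07. Slc2a6, Slc11a2 and Slc16a12 each had 1 clone well below 0 and 1 near it, as given above. In the other 7 genes with several clones, the clone means differed by 0.67 or less. Among these, Slc25a5 was called although neither of its clones passed over clones (limma adjusted p = 0.0968 and 0.0820). For Slc35b4, also called, 1 clone passed and 1 did not (limma adjusted p = 0.0161 and 0.0567). The remaining 61 of the 73 genes rest on 1 clone each, for which no such check could be made.

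The next comparison asked how the lines differed among themselves. A line is 1 replicate, so differences between lines have no test, and a gene was taken to set a line apart where that line lay at least 1 above or below both other lines within each dye orientation. This held for 2 of the 73 genes, against 2.77% of all features, and both concerned Amy (0.306% of all features above and 0.195% below). Abcc5, an ABCC pump that exports cyclic nucleotides, had 1.38 and 1.30 in Amy, beside -0.43 and -0.35 in JA and 0.16 and -0.03 in JB. Its signal was thus higher in Amy than in the pool on both arrays, and lower in JA than in the pool on both. Slc5a2, with the values given above, was lower in Amy than in both other lines by at least 1.02. Aqp8 in JA exceeded the other lines by at least 0.82 in each orientation, which missed the rule.

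Pairs of lines added 1 gene. By the rule of at least 1 in each dye orientation, Amy minus JA was past it for Abcc5 above and Slc5a2 below, and Amy minus JB for the same 2 genes. The pair JA minus JB had only the zinc exporter Slc30a1, which was higher in JA by 1.24, at -0.59 in JA and -1.83 in JB. Shares over all features were 1% and 0.557% for Amy above and below JA, 1.82% and 2.37% for Amy above and below JB, and 1.17% and 2.51% for JA above and below JB. With at most 1 transporter in each direction, the shares of the 73 genes, 1.37% where 1 gene was past the rule, were near these. Within single lines, ratios of at least 1 on both arrays were reached by 8 genes above and 9 below in JA, 7 and 9 in JB and 9 and 9 in Amy, against 7.42% and 13.6%, 5.93% and 11.4%, and 4.97% and 12% of all features.

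**Figure D4:**
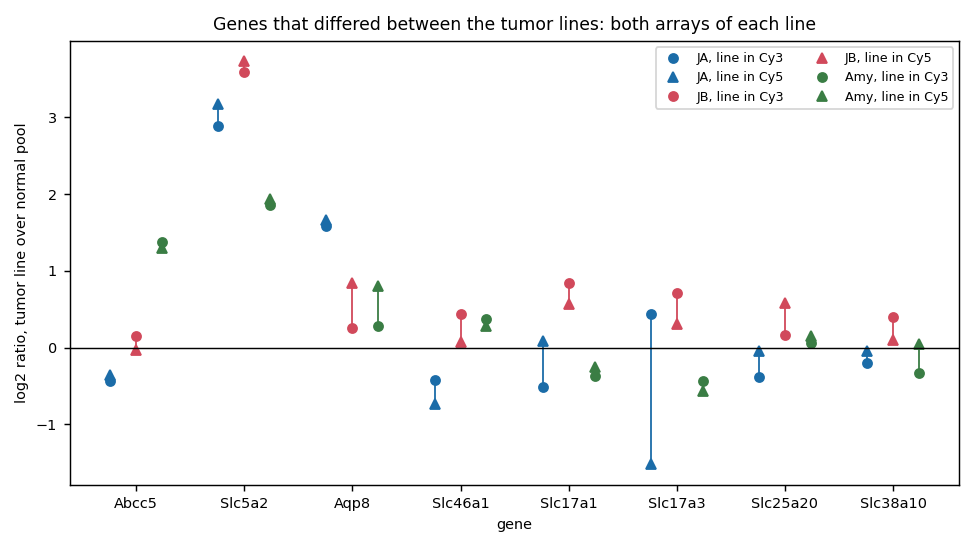
Log2 ratios of tumor line over normal pool (vertical axis) on both arrays of each line for 8 genes in which lines differed, with circles for Cy3 arrays, triangles for Cy5 arrays and a bar joining the 2 arrays of a line. Amy is highest for Abcc5 and lowest for Slc5a2, and JA is highest for Aqp8 and lowest for Slc46a1.

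Other genes of membrane transport came from a list of genes with symbols outside the rule above. It held regulators, partners, channels, receptors, further carriers and pump genes, among them subunits of the V-type proton pump. Of its 80 genes, 27 were measured. Their median was -0.45, and 4 rose, 9 fell and 14 did not pass. Over all features, 20.7% were called higher and 32.8% lower, and the median was -0.12. The lowest were the fatty acid receptor Cd36 at -7.36 ± 0.88 and phospholamban (Pln), the inhibitor of the SERCA calcium pump, at -4.21 ± 1.32 (SD, n = 3 lines; limma adjusted p = 1.51e-04 and 0.00226). Pln had -3.46 and -2.88 in JA, -5.37 and -6.02 in JB and -3.15 and -4.38 in Amy, so it was low on every array while SERCA2 itself did not pass. The 4 measured muscle genes also fell (median -3.68), and whether the fall of Pln belongs with theirs was not tested. Among the small FXYD regulators of the sodium-potassium pump, Fxyd4 fell to -1.80 ± 1.25 while Fxyd3 and Fxyd2 rose to 0.84 ± 0.55 and 0.52 ± 0.25 (SD, n = 3 lines; limma adjusted p = 0.0243, 0.0284 and 0.0294). The calls of Fxyd4 and Fxyd2 were lost without JA (limma adjusted p = 0.148 and 0.149) or Amy (0.117 and 0.126), and that of Fxyd3 without JB (0.0580) or Amy (0.133). The other measured FXYD genes did not pass, Fxyd6 at 0.16 ± 0.21 and Fxyd5 at -1.34 ± 1.79 (SD, n = 3 lines). Fxyd5 had -2.33 and -1.97 in JA, 0.32 and 1.10 in JB and -2.97 and -2.20 in Amy, so JB lay above the pool and both other lines below it. The ammonium channel Rhag rose to 0.94 ± 0.20 (SD, n = 3 lines; limma adjusted p = 0.00382).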

How the data were processed

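The deposited values are log ratios, 1 per spot and array, read here as log2 ratios. The base is an assumption, and the lowest deposited value was -12.7. How the arrays were scanned, corrected, normalized and filtered was not given in the sources used here. No value was missing and no sign was turned between dye orientations. Spots with a single gene symbol (8084 of 16128) were averaged by symbol and all others by clone, giving 7180 features, and all 73 transporter symbols matched RefSeq (GRCr8). Arrays of a line were averaged, and the 3 lines were fitted with limma 3.58.1 in R 4.3.3 (intercept only, eBayes, Benjamini-Hochberg adjustment over all features), after a check on simulated data. The precision is limited by the number of lines. Python 3.11.15 drew the figures with matplotlib 3.10.9.

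The members, the gene lists and the tests were chosen with earlier results of these data known. Named genes were the 12 highest and 12 lowest among those that passed with equal sign on every array, up to 3 per class and direction, genes setting a line apart, 16 measured genes of 43 textbook transporters, the 5 with the widest spread between clones and up to 3 per direction of the other transport genes. The remaining members, Fxyd5 and Fxyd6 were named after their values were seen, to complete their classes. Alternatives were centred or quantile-normalized arrays, line or dye orientation as a block, a spread for the pool, other moderation, single clones, a dye filter, single orientations, left-out lines and arrays, another threshold and, chosen after seeing the data, a call that needs equal sign on all arrays. The labels number arrays by dye orientation, and the orientation difference correlated between lines at 0.526 to 0.613 across features, so arrays of equal number are paired.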

Additional observations from a re-analysis of the deposited data

Results flagged for a closer look

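In 6 genes both arrays of 1 line lay above the pool while both arrays of another line lay below it. The share of all features that did so was not computed, so the count is not a result about transporters. None of these differences between lines was tested, because each line is 1 replicate. The largest was Abcc5, whose log2 ratio in Amy exceeded that in JA by 1.73 (1.34 in Amy and -0.39 in JA). The folate carrier Slc46a1 was higher in Amy than in JA by 0.90 (0.33 in Amy and -0.57 in JA), but these are means of 2 unlike clones. The clone means over all arrays were 0.34 and -0.33, and the second clone was slightly below the pool on both Amy arrays (-0.06 and -0.01). The kidney anion carriers Slc17a1 and Slc17a3 were both higher in JB than in Amy, by 1.02 (0.70 in JB and -0.31 in Amy) and by 1.01 (0.51 in JB and -0.50 in Amy). Slc25a20 was higher in JB than in JA by 0.58 (0.37 in JB and -0.21 in JA) and Slc38a10 by 0.37 (0.25 in JB and -0.12 in JA). Apart from Abcc5, none of the 6 reached a difference of 1 from both other lines in each dye orientation.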

How the results depend on the processing

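The counts of 18 transporter genes higher and 29 lower depended most on how the spread was estimated. They were 10 and 16 with a pool variance equal to that of a 2-line mean, 3 and 6 without moderation of the variances, and 10 and 18 at an adjusted p under 0.01 (limma). With 1 line or 1 array left out the counts ranged from 9 to 18 higher and from 16 to 28 lower, lowest without JA in both directions. Of the 47 calls, 23 were lost when some line was left out (JA for 22, JB for 5, Amy for 14) and 16 when some array was. The replicate block (dye orientation) gave 21 higher and 25 lower, and apart from the 7 genes whose blocked value stands in the report it changed no call of a transporter gene. All 6 arrays with line as a random block gave 21 and 26, without the calls of Slc22a7, Slc22a8, Slc51a and Slc7a13 and with Slc12a2, Slc13a1, Slc28a2 and Slc35a1 added. Each array centred on its median gave 21 and 25, with a median over the 73 genes of 0.045, against -0.07 as deposited, and over all features of -0.01, against -0.12. It ended the calls of Slc16a12, Slc27a2, Slc51a and Slc7a13. The Cy5 arrays alone gave a median of -0.19. On the Cy3 arrays alone Slc51a stood at 0.22 and Slc7a13 at 0.18, opposite to their means, and the cause was not tested. The genes that set a line apart numbered 1 after quantile normalization, 4 at a size of 0.75, 0 at 1.5 and 4 by the mean of both arrays, instead of 2. Under every alternative run, 8 genes kept their calls, namely Aqp1, Abcd3, Slc1a3, Slc2a5, Slc2a13, Slc22a17, Slc25a39 and Slc27a3.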

Other observations

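Some of the genes named are best known from the kidney tubule. They were picked after their values were seen, form no list that was tested, and are given as values only. Slc5a2 stood at 2.86, whereas Slc5a12, Slc12a1, Slc13a1, Slc34a1, Slc17a1 and Slc17a3 stood between -0.23 and 0.35 and did not pass. Slc3a1, Slc22a8, Slc22a7, Aqp2, Slc7a12 and Slc7a13 passed below 0, between -1.57 and -0.40. For all of these the mean over the 3 Cy5 arrays was lower than that over the 3 Cy3 arrays, by little for Slc3a1 (-1.65 and -1.48). In JA, however, the Cy3 array of Slc7a12 was the lower one, and in Amy that of Slc3a1.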
